A study of Mus musculus with 18 samples.

Results

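Cells of 2 kinds sorted from the back skin of 1 mouse line were compared here: 3 arrays of Engrailed-lineage cells, labelled EPF, and 3 arrays of cells outside that lineage, labelled ENF. They were chosen by their titles and make up 6 of the 18 arrays of the series. The mice carried En1Cre and the R26mTmG reporter, in which every cell is red until Cre recombination turns it and its descendants green. Engrailed-1 drives the Cre, so green marks a cell with an ancestor that expressed the gene, whether or not the cell expresses it now. EPF cells were GFP positive and RFP negative, ENF cells were RFP positive and GFP negative, and both came from dorsal dermis of untreated mice. Cells positive for EpCAM, DAPI, CD45, CD31, Tie2 or Tie119, spelled as in the labels, were left out of both. The age is postnatal day 56 in the labels of these arrays and day 30 in the protocol's passage on the back, and which holds is not settled. Nothing states that the 3 arrays of a group came from separate mice, or whether mice were pooled, so p-values measure the spread between these arrays, which may be technical.

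The dermis of the back develops largely from the dermomyotome, the somite compartment that also gives rise to trunk skeletal muscle, and Engrailed-1 is expressed in its central part. Besides fibroblasts the adult dermis holds the dermal papilla and the contractile dermal sheath of hair follicles, the arrector pili muscles, vessel walls with pericytes, and the epithelium of follicles and glands. A sort that removes cells by surface markers can still leave a mixed population in the red gate. In bulk RNA of such cells, fewer cells of a type and less RNA per cell cannot be told apart.

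All values are log2 expression after RMA, the method that summarises the probes of a probe set, with 1 probe set per gene. A difference is EPF minus ENF ± SE, and genes with an adjusted p under 0.05 in limma, adjusted over all 18193 genes, are termed called. Levels up to 4.60, the 25th percentile of the levels measured here, are termed near background, and a difference from such a level understates the change. Limma called 56 genes, or 0.308% of those tested, with 50 higher in EPF (0.275%) and 6 lower (0.0330%). Counts of called list members below stand against these shares. At an unadjusted p below 0.05 there were 1967 genes (10.8%), 1086 higher (5.97%) and 881 lower (4.84%). Differences of at least 2-fold were found higher in EPF for 274 genes (1.51%) and lower for 303 (1.67%). The median difference over all genes was 0.00021. The 3 arrays of EPF lay above all 3 of ENF in 1583 genes (8.70%) and below them in 1517 (8.34%).

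Most calls depended on single arrays. Of the 56 genes, 4 passed in every fit that left out 1 array, namely Mylk, Zic1, Myh11 and Gm13889, and these were also the 4 genes called without EPF 2. Without EPF 3, 9 genes were called, all among the 56. The number was 37 without EPF 1 and 74, 58 and 130 without ENF 1, ENF 2 and ENF 3. The sign of the difference could not change in these 6 fits, because the EPF and ENF arrays overlapped in none of the 56 genes. Xist, expressed from the inactive X chromosome, was at 4.98 in ENF 1 and 5.20 in EPF 2 and at 11.60 to 12.13 on the other 4 arrays. Without those 2 arrays 4 genes were called, of which Mylk and Zic1 were among the 56.

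Control probe sets parted the groups too. All 42 probe sets of spiked-in transcripts that do not come from the mouse were lower on every EPF than on every ENF array. Those added to the RNA with a polyadenylate tail averaged 11.63, 12.70 and 12.28 in EPF 1 to 3 against 13.98, 13.36 and 13.54 in ENF 1 to 3. Their 3′ signal exceeded their 5′ signal by 4.29, 3.11 and 3.18 in EPF and by 1.40, 2.27 and 2.04 in ENF. For mouse Actb this excess was 3.20, 2.45 and 2.27 in EPF and 2.66, 2.42 and 2.60 in ENF, so the groups overlapped there. The part of these signals in the results was not tested.

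Genes of smooth muscle contraction were among those higher in EPF. Of 30 measured members of the list 6 rose (0.275% of all genes) and 24 did not pass, and none fell. The median difference of the list was 0.49, against 0.00021 over all genes. Of the members 15 had every EPF array above every ENF array (8.70% of all genes). Contraction needs myosin and actin filaments, a kinase that switches the myosin on, a phosphatase that switches it off, and thin filament proteins that set the response to calcium, and the called genes came from each of these roles.

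Mylk, the kinase that phosphorylates the myosin regulatory light chain, read 10.20, 10.25 and 10.13 in EPF 1 to 3 and 6.49, 6.65 and 6.25 in ENF 1 to 3. The arrays of each group were close to each other, and the gap of 3.73 ± 0.16 (13.3-fold, adjusted p = 0.000371) was the one with the lowest adjusted p of all genes. It has 3 probe sets, and in a fit over all probe sets another was called at 3.62 while the last differed by 0.24 and was not. Ppp1r14a, an inhibitor of myosin phosphatase, read 7.46, 8.24 and 8.33 in EPF and 4.46, 4.83 and 4.59 in ENF, of which the ENF values averaged near the limit of background (difference 3.38 ± 0.25, adjusted p = 0.00498). Both proteins act to keep myosin phosphorylated.

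The motor and filament genes followed. Myh11, the smooth muscle myosin heavy chain, read 6.61, 6.32 and 6.60 in EPF and 4.28, 4.39 and 3.99, near background, in ENF (2.29 ± 0.17, adjusted p = 0.00498). Its other probe set was near background in both groups and differed by 0.15. Cnn1, calponin, a thin filament protein that restrains the myosin ATPase, read 7.38, 6.66 and 6.83 in EPF and 5.15, 4.46 and 4.86 in ENF (2.13 ± 0.25, adjusted p = 0.026). The 2 actins of smooth muscle, Actg2 and Acta2, complete the 6. By role, 4 of 6 actin and myosin genes, 1 of 8 thin filament and calcium regulators and 1 of 4 genes of phosphatase control rose. None of 7 intermediate filament and junction genes and none of 5 transcriptional regulators passed.

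Several contractile genes that did not pass, named here after their values were seen, had 1 ENF array far from the others. Tpm2, a tropomyosin, read 11.77, 11.45 and 11.40 in EPF and 9.91, 10.69 and 7.94 in ENF (adjusted p = 0.286), and Tagln, transgelin, read 9.28, 9.24 and 9.77 and 8.21, 8.65 and 6.48 (adjusted p = 0.303). ENF 3 was the lowest array for both. Myocd, the coactivator that drives smooth muscle genes with serum response factor, read 6.34, 5.13 and 4.58 in EPF, with EPF 1 the highest, and 3.80, 3.72 and 3.77 in ENF, near background on every array (adjusted p = 0.193). Srf, serum response factor itself, overlapped between the groups at 8.67, 7.92 and 8.12 and 8.01, 7.56 and 8.10. Without EPF 1, EPF 2 and EPF 3 the 6 called contractile genes became 4, 2 and 3, with adjusted p up to 0.167, and without ENF 1 and EPF 2 together 1 contractile gene was called. Without any 1 of the ENF arrays all 6 passed.

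**Figure D1:**
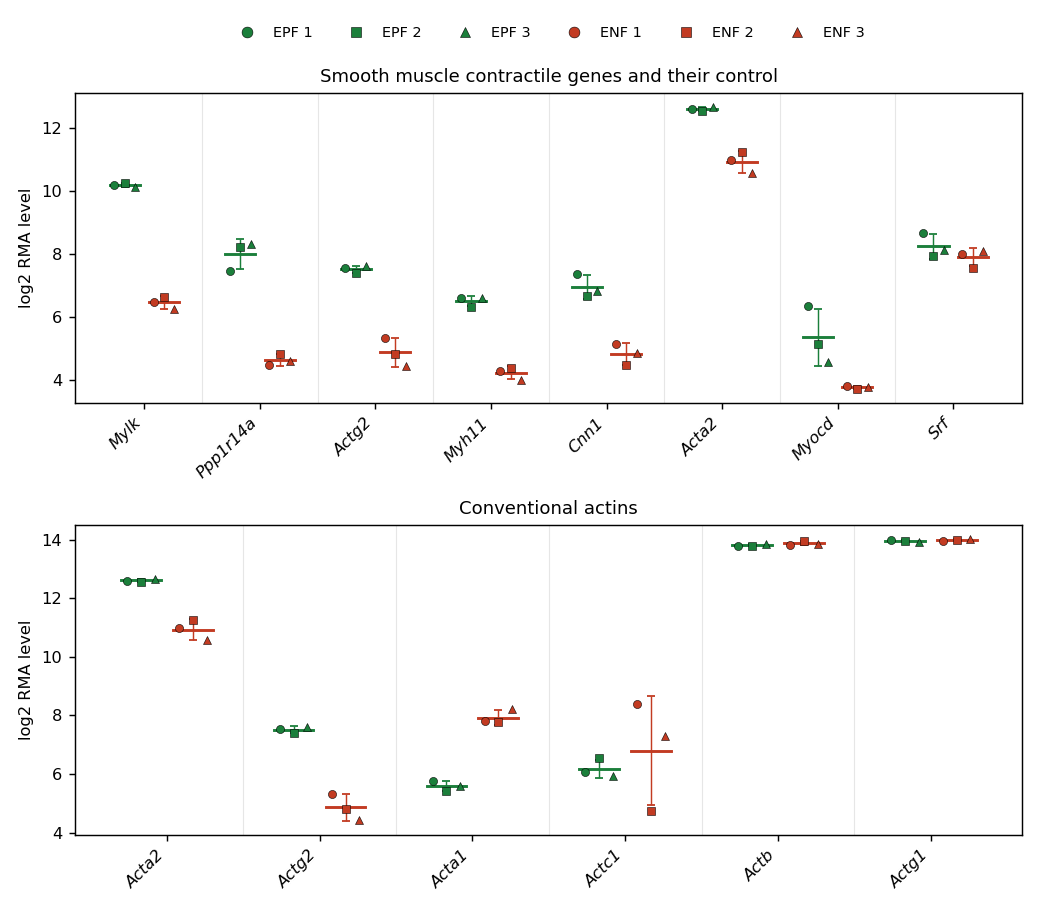
Log2 RMA level of smooth muscle contractile genes with 2 of their regulators (top) and of the 6 conventional actins (bottom) on each array; green marks EPF, red marks ENF, symbol shape gives the replicate, and bars give the mean and SD of 3 arrays. Mylk, Ppp1r14a, Actg2, Myh11, Cnn1 and Acta2 lie higher on every EPF array, Acta1 lies lower on every EPF array, and Actb and Actg1 overlap between the groups.

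The 6 conventional actins moved in different directions. Acta2, alpha actin of smooth muscle, read 12.60, 12.54 and 12.66 in EPF and 10.99, 11.24 and 10.56 in ENF, and Actg2, gamma actin of smooth muscle, read 7.55, 7.39 and 7.60 and 5.34, 4.83 and 4.44. Both rose, by 1.67 ± 0.20 and 2.65 ± 0.24 (adjusted p = 0.026 and 0.00637). The 2 other probe sets of Acta2 were near background and were not called. Acta1, alpha actin of skeletal muscle, read 5.75, 5.42 and 5.58 in EPF and 7.82, 7.76 and 8.21 in ENF and fell by 2.35 ± 0.18 (adjusted p = 0.00498). Actc1, the cardiac actin that skeletal muscle also makes during development and repair, read 6.06, 6.54 and 5.93 in EPF and 8.39, 4.74 and 7.29 in ENF, so that ENF held both the highest and the lowest array. The cytoplasmic actins Actb and Actg1 differed by -0.07 ± 0.14 and -0.03 ± 0.14, which is less than their SE. Acta1, Acta2 and Actg2 were also called after quantile normalization of the 6 arrays and after median centring. As the deposited values were already quantile normalized, these steps test little. Of the 3 called actins, 2 passed without EPF 1, 0 without EPF 2 and 1 without EPF 3, with adjusted p up to 0.167.

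The sequence just upstream of these genes shows what actins with opposite differences have in common. The CArG box, to which serum response factor binds, was searched in 250 bases before the annotated start. It is its own reverse complement in form, so that 1 pass covers both strands, and windows were also taken with 1 G or C among the 6 bases of its core. Promoters for RefSeq (GRCm38.p6) were at hand for 4 of the 6 actins, without Actg2 and Actb. Of these 3 held an exact box and all 4 a box of the relaxed form. Over all 27025 genes with a promoter, 1.62% held an exact box and 9.78% a relaxed one. The 150 bases before the start follow on the strand of the gene, with each box, exact or relaxed, in capitals.
Acta1 (higher in ENF), chr8:123894776-123894925, minus strand: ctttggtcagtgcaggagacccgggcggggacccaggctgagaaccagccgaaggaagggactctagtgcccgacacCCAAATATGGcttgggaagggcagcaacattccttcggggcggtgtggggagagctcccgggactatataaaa
Acta2 (higher in EPF), chr19:34255374-34255523, minus strand: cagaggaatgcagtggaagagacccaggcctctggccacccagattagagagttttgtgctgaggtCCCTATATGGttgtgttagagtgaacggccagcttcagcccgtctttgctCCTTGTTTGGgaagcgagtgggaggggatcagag
Actc1 (not called), chr2:114052876-114053025, minus strand: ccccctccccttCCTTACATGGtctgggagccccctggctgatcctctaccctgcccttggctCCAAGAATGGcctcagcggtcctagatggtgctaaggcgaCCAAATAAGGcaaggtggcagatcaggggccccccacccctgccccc
Actg1 (not called), chr11:120348496-120348645, minus strand: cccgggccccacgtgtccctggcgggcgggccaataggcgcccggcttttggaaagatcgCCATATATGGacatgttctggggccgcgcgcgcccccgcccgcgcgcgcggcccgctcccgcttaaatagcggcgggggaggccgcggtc

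The exact box lies 73 bases before the start in Acta1, 47 in Actc1 and 90 in Actg1, counted to its first base, and in Acta2 the 2 relaxed boxes begin 84 and 34 bases before the start. The gene that rose, the gene that fell and both genes without a call thus all hold the motif, exact or relaxed, in this window. Among the 24 contractile genes with a promoter there, 4 held an exact and 8 a relaxed box, and among 41 of the 56 called genes 1 held an exact and 2 a relaxed box. The called contractile genes Mylk, Ppp1r14a and Cnn1 held neither form in the window. The match is a description of the letters and does not show binding.

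Few genes of the other cells that carry such a contractile apparatus in skin passed. Of 16 pericyte genes 1 rose and 15 did not pass, while 10 had every EPF array above every ENF array (8.70% of all genes) and the median difference was 0.72. Rgs4, which shortens G protein signalling, read 7.69, 7.08 and 7.82 in EPF and 5.51, 5.69 and 5.98 in ENF (1.81 ± 0.23, adjusted p = 0.0324). Rgs5, a common pericyte marker, read 11.27, 11.98 and 12.24 in EPF and 7.94, 8.47 and 9.87 in ENF (3.07 ± 0.48, adjusted p = 0.0637), ENF 3 being the highest ENF array. In the fit over all probe sets another of its 4 probe sets was called, at 2.24 with 8.92, 9.04 and 9.17 in EPF and 6.79, 6.22 and 7.38 in ENF. Kcnj8, the pore of a potassium channel of mural cells, read 9.04, 9.20 and 9.39 and 7.57, 7.23 and 8.15 (adjusted p = 0.0637). Pdgfrb overlapped, at 12.64, 12.55 and 12.16 and 12.49, 11.81 and 11.88. Without ENF 3, 4 pericyte genes were called, and without any 1 of the other 5 arrays none was.

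Of 11 vasoactive receptors and ligands 1 rose. Ednrb, the endothelin receptor B, read 8.52, 10.21 and 10.50 in EPF and 4.55, 5.66 and 4.92 in ENF, and its difference of 4.70 ± 0.52 (26-fold, adjusted p = 0.0197) was the widest among the 50 higher genes. EPF 1 lay clearly below EPF 2 and EPF 3. Its 2 other probe sets differed by 1.69 and -0.08 and were not called. None of 9 arrector pili genes passed. Itga8, an integrin of that muscle, stood at 9.58, 9.67 and 9.44 and 7.75, 8.52 and 7.36 (adjusted p = 0.0758). Without EPF 2 or without EPF 3 neither Rgs4 nor Ednrb passed, with adjusted p up to 0.183.

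Dermal papilla and dermal sheath genes had the widest positive shift of the 59 lists, with a median of 1.16. Of 31 members 7 rose (0.275% of all genes), 24 were not called and none fell. The lists were chosen with earlier results of these data known, so this rank is a description only. Of the called genes 5 belong to the sheath, the smooth muscle layer around the follicle: Mylk, Myh11 and Acta2, which are also contractile genes, with Tnmd and Col11a1. The others, Inhba and Trps1, are genes of the papilla. Tnmd, a membrane protein best known from tendon, read 9.75, 10.99 and 10.27 in EPF and 7.89, 6.17 and 6.53 in ENF (3.48 ± 0.48, adjusted p = 0.0432). In the limma fit over probe sets Tnmd was not called (adjusted p = 0.0523). Col11a1, a fibrillar collagen chain, read 6.53, 7.66 and 8.25 and 3.41, 4.55 and 3.84 (3.55 ± 0.46, adjusted p = 0.0324), with EPF 1 the lowest EPF array. Its second probe set differed by 2.93 and was not called.

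Papilla genes without a call differed within EPF. Corin, a serine protease used as a papilla marker and named here after its values were seen, read 3.60, 6.96 and 7.22 in EPF and 3.28, 3.17 and 3.31 in ENF, so that EPF 1 was near background with the ENF arrays (adjusted p = 0.309). Sostdc1, an antagonist of BMP and Wnt ligands, read 6.01, 8.93 and 9.02 in EPF and 3.98, 6.04 and 8.25 in ENF and overlapped. Wif1, an inhibitor of Wnt ligands, read 7.93, 9.82 and 9.42 in EPF and 3.66, 5.56 and 5.41 in ENF, a difference of 4.18 ± 0.62 that missed the threshold (adjusted p = 0.0501). Crabp1, which binds retinoic acid and marks papilla and upper dermis, read 9.02, 8.54 and 8.88 and 4.99, 7.0 and 5.17 (adjusted p = 0.0637). Alpl and Rspo2, also named after their values were seen, differed by 0.24 ± 0.22 and 0.17 ± 0.75.

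Of 14 tendon genes 3 rose (0.275% of all genes) and 11 did not pass. Mkx, a homeobox factor of tendon, read 6.73, 7.12 and 7.27 in EPF and 4.62, 4.73 and 4.89 in ENF (2.29 ± 0.19, adjusted p = 0.00572). Thbs4, a thrombospondin of tendon matrix, read 12.12, 12.05 and 12.93 and 9.72, 10.60 and 10.28 (2.17 ± 0.31, adjusted p = 0.046), and Tnmd is the third. Fmod, a collagen-binding proteoglycan, was lowest in ENF 2, with 10.21, 10.55 and 10.25 in EPF and 8.07, 5.80 and 8.32 in ENF (adjusted p = 0.122). Of the 9 called sheath, papilla and tendon genes 2 passed without EPF 2, 3 without EPF 3 and 4 without EPF 1, with adjusted p up to 0.196. Without ENF 1, ENF 2 and ENF 3 the numbers were 7, 7 and 6.

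Few matrix genes outside these lists passed. Mfap4, a protein of elastic microfibrils, was the 1 called member of 20 elastic fibre genes, at 10.75, 11.34 and 11.36 in EPF and 7.72, 8.26 and 7.31 in ENF (3.38 ± 0.28, 10.4-fold, adjusted p = 0.00579). Eln and Fbn2, which form the fibre and its scaffold, read 9.99, 10.38 and 10.12 and 8.29, 8.56 and 8.43 in EPF against 8.59, 8.66 and 9.77 and 6.26, 6.61 and 7.66 in ENF and did not pass. Col23a1, a transmembrane collagen also counted among papillary dermis genes, read 8.01, 8.53 and 8.48 and 6.17, 5.93 and 6.37 (2.18 ± 0.20, adjusted p = 0.00811). Papillary dermis genes had 2 of 14 members higher, Col23a1 and Trps1, a zinc finger factor at 8.97, 9.15 and 9.10 and 7.33, 7.41 and 7.79 (adjusted p = 0.0197). The other probe sets of Trps1 differed by 1.98, 1.67 and 0.72 and were not called.

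None of 17 general fibroblast genes, 13 small leucine-rich proteoglycans, 18 collagen processing enzymes, 27 proteases and inhibitors, 13 reticular and 15 adventitial genes passed. Their medians were 0.25, 0.35, 0.25, 0.21, 0.41 and -0.04. Bgn, biglycan, was at 12.97, 13.60 and 13.40 in EPF and 11.41, 12.16 and 12.10 in ENF (adjusted p = 0.0888), and Twist2, a dermal bHLH factor, at 9.99, 10.28 and 10.03 and 9.21, 8.79 and 9.09 (adjusted p = 0.0684). Pdgfra, the receptor that marks dermal fibroblasts, overlapped at 13.02, 13.09 and 13.39 and 12.995, 13.12 and 13.15, and Dpp4, a surface protease used to mark Engrailed-lineage cells, at 11.65, 10.47 and 11.98 and 11.69, 11.73 and 11.78. Of Mfap4, Col11a1, Col23a1 and Thbs4 none passed without EPF 2 or without EPF 3, with adjusted p up to 0.187, and Thbs4 passed in none of the 6 fits.

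Secreted signals and their inhibitors had few calls, most of them extracellular modulators. Dkk2, a secreted regulator of the Wnt coreceptors, was the 1 called gene of 61 in the Wnt pathway, at 10.58, 10.18 and 10.20 in EPF and 8.46, 7.68 and 7.40 in ENF (2.47 ± 0.28, adjusted p = 0.0218). Of its parts, 12 antagonists had a median of 0.67, against 0.11 for 20 ligands, 0.02 for 18 receptors and 0.29 for 11 targets and effectors. Wnt4, a ligand, was the widest difference in the other direction, at 5.46, 5.80 and 5.36 in EPF and 7.43, 8.69 and 7.46 in ENF (adjusted p = 0.0501). Wnt5b and Nkd1, a ligand and a feedback inhibitor named after their values were seen, stood at 1.17 ± 0.19 and 1.30 ± 0.21 (adjusted p = 0.0637 and 0.0637).

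In the insulin-like growth factor system 2 of 14 genes rose (0.275% of all genes). Igfbp2, a binding protein, read 8.13, 8.95 and 8.84 in EPF and 5.40, 4.70 and 5.26 in ENF (3.52 ± 0.28, adjusted p = 0.00498). Pappa2, a protease of such binding proteins, read 8.84, 7.40 and 7.85 and 5.09, 5.17 and 5.88 (2.65 ± 0.38, adjusted p = 0.0465). Among 38 BMP and activin genes 1 rose and 1 fell. Inhba, which forms activin A, read 9.17, 9.20 and 9.55 in EPF and 7.87, 7.19 and 7.63 in ENF (1.74 ± 0.22, adjusted p = 0.0297), and its second probe set differed by -0.05. Chrdl2, a chordin-like BMP antagonist, fell.

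Slit2, a secreted ligand of Robo receptors, was the 1 called gene of 33 guidance genes, at 11.01, 11.34 and 10.86 and 8.99, 9.06 and 9.15 (2.00 ± 0.17, adjusted p = 0.00591). Its other probe sets differed by 0.84 and 1.24 and were not called. Dusp6, a phosphatase induced by FGF signalling, was lower on every EPF array, at 7.97, 7.30 and 8.10 and 9.18, 10.57 and 10.01, without passing (adjusted p = 0.0765), and none of 22 FGF genes was called. Cyp26b1, which degrades retinoic acid, stood at 11.003, 10.55 and 10.89 and 8.73, 9.12 and 9.79 (adjusted p = 0.0792), and none of 15 retinoic acid genes was called. Nr4a3, an orphan nuclear receptor, was the 1 called of 26 immediate early genes, at 10.40, 10.35 and 10.20 and 9.09, 8.67 and 9.04 (1.38 ± 0.17, adjusted p = 0.0297), while its 2 other probe sets were not called. Egr3, of the same list, lay the other way at 7.32, 7.71 and 7.50 and 8.76, 10.05 and 8.15 (adjusted p = 0.273). None of Dkk2, Inhba, Chrdl2, Igfbp2, Pappa2, Slit2 and Nr4a3 passed without EPF 2, 2 passed without EPF 1 and 2 without EPF 3, with adjusted p up to 0.198.

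Other signalling and cell type lists held no called gene. None of 17 TGF-beta, 13 Hedgehog, 17 Notch, 7 PDGF and 17 integrin genes passed, with medians of 0.38, 0.25, -0.01, 0.03 and 0.04. Notch1, a receptor, was lower on every EPF array at 8.89, 8.72 and 8.65 and 9.22, 10.001 and 9.80 (adjusted p = 0.177), as was Itga6, an integrin of basal epithelial cells, at 6.43, 5.22 and 6.22 and 7.17, 8.51 and 8.01 (adjusted p = 0.14). Among 13 Schwann cell genes Erbb3, a neuregulin receptor that epithelia also express, stood at 5.42, 5.51 and 5.93 and 6.49, 7.16 and 7.24 (adjusted p = 0.0888). Among 11 melanocyte genes Mlana, a melanosome protein, lay the other way at 8.13, 9.88 and 8.05 and 6.65, 5.87 and 6.76 (adjusted p = 0.151), while Pmel, of the same organelle, read 6.41, 5.96 and 5.79 and 5.62, 5.84 and 5.74.

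Genes of body axis and region were represented by Zic1 and 2 Hox genes. Zic1, a zinc finger factor of the dorsal somite, read 10.75, 10.90 and 11.13 in EPF and 6.02, 6.72 and 6.68 in ENF (4.46 ± 0.23, adjusted p = 0.000667), and its second probe set was called too, at 4.70. It was the 1 called of 48 dermomyotome and trunk genes. Hoxa9 read 9.09, 9.11 and 8.78 and 6.54, 7.63 and 6.89 (1.97 ± 0.28, adjusted p = 0.046) and Hoxc10 8.10, 7.99 and 8.33 and 6.83, 6.82 and 7.03 (1.24 ± 0.16, adjusted p = 0.0324), both of them genes of posterior patterning. Of 33 Hox genes these 2 rose, with a median of -0.01 for the list. The second probe set of Hoxa9, above background in both groups, differed by 0.25 and was not called. In the limma fit over probe sets the one used here was not called either (adjusted p = 0.0563). Foxd1, a forkhead factor of mesenchyme, stood at 7.81, 7.52 and 7.59 and 5.80, 4.68 and 6.31 (adjusted p = 0.0964). En1 was near background on all 6 arrays, at 3.89, 3.78 and 3.74 and 3.62, 3.69 and 3.51. Zic1 passed in all 6 fits that left out 1 array, while Hoxa9 and Hoxc10 each passed in 1 of them, with adjusted p up to 0.243.

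The genes higher in ENF belonged mostly to epithelium and skeletal muscle. Of the 6 that fell, 3 are on the epithelial lists and 3 on the skeletal muscle lists. Their SD over the ENF arrays ran from 0.24 for Acta1 to 0.98 for Myf5, against a median of 0.249 over all genes.

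Epithelial genes were highest in ENF 2 and ENF 3. Of 46 basal, junction and hair follicle genes measured, 36 had one of these 2 arrays as the highest of the 6. Over all 60 epithelial markers the mean level was 6.09, 5.06 and 5.53 in EPF 1 to 3 and 6.07, 7.13 and 6.95 in ENF 1 to 3, so EPF 1 and ENF 1 were alike. Trp63, the factor that sets up stratified epithelium, read 5.12, 4.42 and 5.01 in EPF and 8.61, 9.78 and 8.58 in ENF and fell by 4.13 ± 0.35 (adjusted p = 0.00591). Its 3 other probe sets were not called, and the widest of their differences was -0.62. Lypd3, a surface protein of upper epidermal layers, read 5.10, 4.25 and 4.65 and 6.92, 7.62 and 7.61 and fell by 2.72 ± 0.28 (adjusted p = 0.0141).

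Lhx2, a LIM homeobox factor of hair follicle progenitors, read 4.99, 3.41 and 3.64 in EPF and 6.56, 7.77 and 7.83 in ENF and fell by 3.38 ± 0.48 (adjusted p = 0.0461). In the limma fit over probe sets Lhx2 was not called (adjusted p = 0.0563). Trp63, Lypd3 and Lhx2 were higher on all 3 ENF arrays, also on ENF 1. Among structural genes of epithelium, 5 of 20 junction genes lay lower on every EPF than on every ENF array (8.34% of all genes). The keratins and desmoplakin given next did not. Krt14, a basal keratin, read 6.30, 4.48 and 5.29 in EPF and 5.80, 9.81 and 9.54 in ENF, and Krt5, its partner, 9.72, 6.14 and 7.43 and 9.64, 11.72 and 11.34. Dsp, desmoplakin, read 11.17, 3.38 and 8.13 in EPF and 9.07, 12.18 and 12.11 in ENF, with EPF 1 above ENF 1. EPF 2 was the lowest array for these 3 genes.

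Of 10 basal keratinocyte genes 1 fell, of 14 suprabasal genes 1, of 16 hair follicle genes 1 and of 20 epithelial junction genes 0, with medians of -2.14, -0.27, -0.81 and -1.16. With ENF 2 and ENF 3 both left out, a choice made after seeing the data that assumes the remaining ENF array varies like the others, the basal, hair follicle and junction medians were -0.78, -0.45 and -0.16. Within the hair follicle list Krt25, a keratin of the inner root sheath, was high in ENF 1 and ENF 2 and not in ENF 3, at 7.30, 7.36 and 3.72, and Gata3, a factor of the same layer, was highest in ENF 2, at 5.05, 8.62 and 6.41. In EPF these read 3.82, 3.39 and 3.97 and 4.83, 4.03 and 4.60. The series holds 12 further arrays of green cells at postnatal day 30, 3 of them labelled Dorsal and 9 from other sites, as a set of arrays apart from these 6. The cranial and oral arrays among them are of the Wnt1 lineage, so green does not mark the Engrailed lineage there. On them Trp63 ran from 3.50 to 4.13, Lhx2 from 3.16 to 3.96 and Lypd3 from 3.86 to 4.49. Genes higher in EPF were mixed on the 3 Dorsal arrays. Of the 4 called in every fit without 1 array, Mylk (7.56 to 9.81) and Zic1 (8.75 to 10.08) lay above every ENF array. Myh11 (3.88 to 4.17) and Gm13889 (6.53 to 7.06) overlapped ENF, at 3.99 to 4.39 and 6.42 to 6.77. Thbs4, also called higher, lay below every ENF array at 5.61 to 5.97, and Slit2 above at 11.22 to 11.62. The cause was not tested.

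Epcam, the gate marker of epithelial cells, gave no clear reading. Its probe set used here read 8.91, 9.18 and 9.25 in EPF and 7.55, 8.99 and 9.15 in ENF, and the other read 7.40, 4.33 and 5.22 in EPF and 6.42, 8.25 and 10.09 in ENF. Without ENF 2 and ENF 3 the contractile list had a median of 0.69 and 7 members called, against 0.49 and 6 with all arrays. With the mean level of the basal keratinocyte and junction genes on each array as a covariate, 3 genes were called in all. Of these Mylk and Zic1 are among the 56, and all 56 kept their sign. Without EPF 2 or without EPF 3 none of Trp63, Lhx2 and Lypd3 passed, with adjusted p up to 0.235, and 2 of them passed without ENF 2 and 2 without ENF 3.

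**Figure D2:**
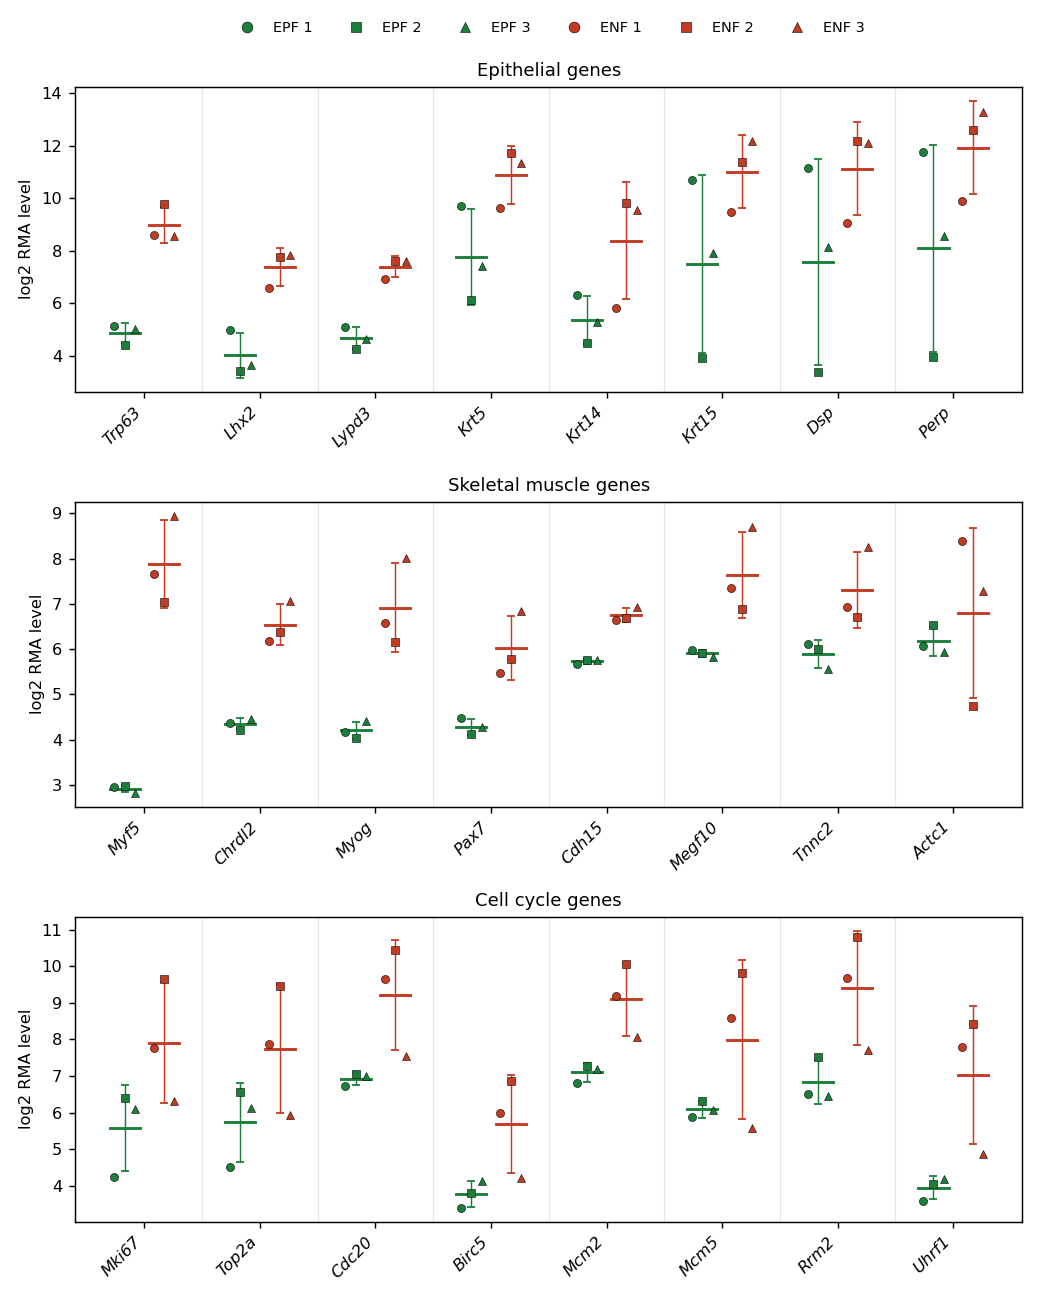
Log2 RMA level of epithelial genes (top), skeletal muscle genes (middle) and cell cycle genes (bottom) on each array; green marks EPF, red marks ENF, symbol shape gives the replicate, and bars give the mean and SD of 3 arrays. Epithelial genes peak in ENF 2 and ENF 3, except that Trp63 peaks in ENF 2 alone with ENF 1 and ENF 3 alike. Muscle genes peak in ENF 3 except for Actc1, and cell cycle genes in ENF 2 followed by ENF 1.

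Of the skeletal muscle genes, 2 of the progenitor list and 1 of the sarcomere list fell. Of 16 progenitor genes 2 fell and 14 did not pass, and 7 had every ENF array above every EPF array (8.34% of all genes), with a median of -0.52. Myf5, a myogenic factor of satellite cells and myoblasts, read 2.95, 2.97 and 2.83, near background, in EPF and 7.67, 7.03 and 8.95 in ENF, and fell by 4.97 ± 0.43 (31.3-fold, adjusted p = 0.00591). It was the widest difference among the called genes. Chrdl2 read 4.37, 4.21 and 4.46 in EPF and 6.19, 6.38 and 7.06 in ENF and fell by 2.20 ± 0.24 (adjusted p = 0.018).

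Further genes of the satellite cell lineage also had ENF 3 as the highest array and did not pass. Pax7, the factor that marks satellite cells, read 4.47, 4.12 and 4.28 in EPF and 5.48, 5.79 and 6.83 in ENF (adjusted p = 0.103), and its second probe set 3.66, 3.68 and 3.74 against 6.06, 5.94 and 8.07. Myog, the factor of differentiating myoblasts and named with Cdh15 after their values were seen, read 4.18, 4.03 and 4.41 and 6.57, 6.16 and 8.02 (adjusted p = 0.0657). Cdh15, M-cadherin, read 5.67, 5.75 and 5.77 and 6.64, 6.68 and 6.93 (adjusted p = 0.0501). ENF 3 was the highest of the 6 arrays for 8 of the 16 progenitor genes, while the order of ENF 1 and ENF 2 differed between genes. Myod1 overlapped between the groups at 5.41, 4.89 and 5.17 and 5.82, 5.10 and 6.37.

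Of 28 sarcomere genes, which build and fuel the mature fibre, 1 fell and 27 did not pass, with a median of -0.13. Acta1 is that gene. Tnnc2, fast troponin C, stood at 6.13, 6.0 and 5.56 in EPF and 6.94, 6.71 and 8.27 in ENF (adjusted p = 0.253), and Tnnt1, slow troponin T, lay the other way at 5.46, 6.08 and 6.16 and 4.01, 4.49 and 4.98 (adjusted p = 0.128). Ttn, Ckm and Pvalb, named after their values were seen, differed by -0.02 ± 0.21, 0.05 ± 0.33 and 0.06 ± 0.28. The 12 further arrays of green cells, the Dorsal ones included, mix the Engrailed and Wnt1 lineages. On these 12 arrays Myf5 ran from 2.86 to 3.37 and Chrdl2 from 4.18 to 4.79, below every ENF array here. Acta1 ran from 5.87 to 8.02 on the 12 arrays, and from 5.87 to 8.01 on the 3 Dorsal arrays, which overlaps its ENF values. Of Myf5, Chrdl2 and Acta1, 2 passed without EPF 1, 0 without EPF 2 and 1 without EPF 3, with adjusted p up to 0.127, and all 3 passed without any 1 of the ENF arrays. With the mean skeletal muscle level of each array as a covariate 131 genes were called, 21 higher and 110 lower, of which 10 are among the 56.

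Most cell cycle genes measured were highest in ENF 2. None of 26 DNA replication genes and none of 25 mitosis genes passed in limma, and the medians were -0.84 and -1.03. At an unadjusted p below 0.05 in limma 13 and 11 of them were lower (4.84% of all genes). ENF 2 was the highest of the 6 arrays for 47 of the 51 genes. Mki67, which marks dividing cells, read 4.25, 6.41 and 6.09 in EPF and 7.77, 9.64 and 6.33 in ENF, and Mcm2, part of the replicative helicase, 6.81, 7.28 and 7.21 and 9.18, 10.06 and 8.06. Cdc20, an activator of the anaphase-promoting complex, read 6.73, 7.06 and 7.01 and 9.66, 10.44 and 7.55. ENF 3 was the closest of the ENF arrays to EPF for these genes, and without it 6 replication genes and 4 mitosis genes were called lower. By list mean the order of ENF arrays was ENF 2 then ENF 1 for the cell cycle lists. It was ENF 3 then ENF 1 for the muscle lists, while Chrdl2 and Cdh15 had ENF 2 above ENF 1. ENF 2 and ENF 3 were close for basal keratinocyte genes, at 1.33 and 1.48 above the mean of the 6 arrays. They were also close for junction genes, at 1.11 and 1.09, and ENF 2 was the higher for hair follicle genes, at 1.23 and 0.32.

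**Figure D3:**
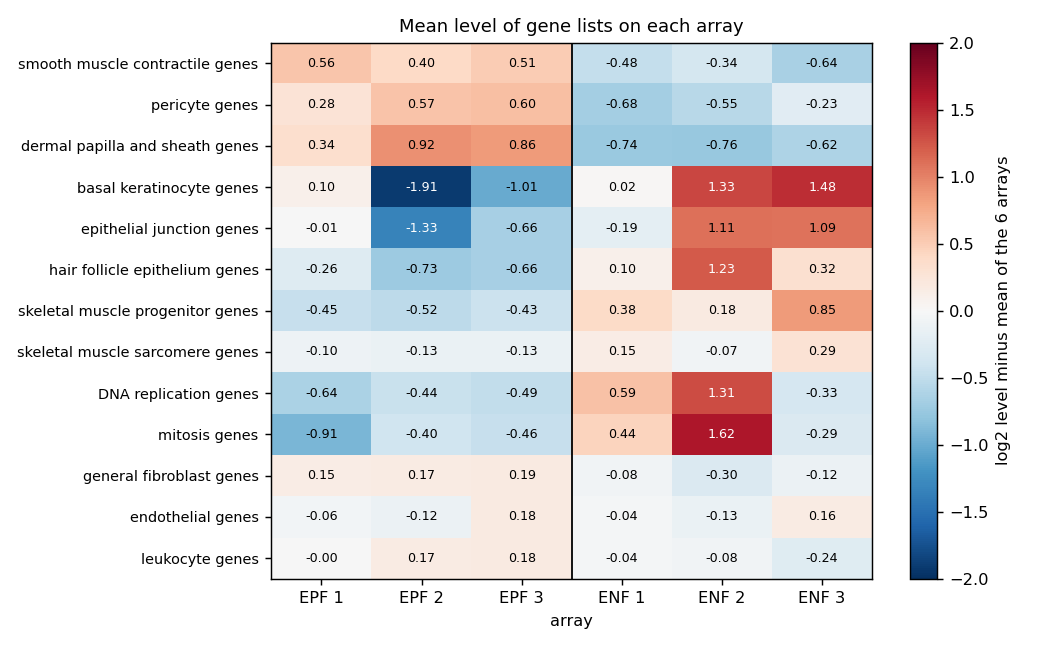
Mean log2 RMA level of 13 gene lists on each of the 6 arrays, minus the mean over the 6 arrays; red is above and blue below that mean, and each cell prints the value. The contractile, pericyte and papilla lists are above their mean on all 3 EPF arrays and below it on all 3 ENF arrays. Muscle progenitor and hair follicle genes lie the other way on all 6 arrays. Basal keratinocyte and junction genes vary within both groups, and the cell cycle lists vary most among the ENF arrays.

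No marker of the endothelial cells or leukocytes that the gate removed was called in either direction. The means of 19 endothelial genes ran from 5.35 to 5.66 over the 6 arrays and those of 23 leukocyte genes from 4.73 to 5.15. Pecam1 and Ptprc, which encode CD31 and CD45, were near background at 3.85, 3.98 and 3.86 and 3.90, 3.96 and 3.84 in EPF and 4.25, 3.89 and 4.14 and 3.72, 4.06 and 3.68 in ENF. Tek, which encodes Tie2, read 10.84, 9.45 and 10.33 and 10.74, 9.89 and 10.74, far above background in both groups although Tie2 was part of the gate. Csf1r, a receptor of macrophages, stood higher on every EPF array, at 9.76, 10.68 and 9.20 and 8.50, 6.66 and 6.41, without passing (adjusted p = 0.148).

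The ENF arrays were more spread than the EPF arrays, and single arrays carried genes of their own. The median SD of a gene over 3 arrays was 0.249 in ENF and 0.184 in EPF, and it was larger in ENF for 65.1% of genes. ENF 2 exceeded all 5 other arrays by at least 2 log2 units in 17 genes and ENF 3 in 16, against 0 in ENF 1 and EPF 1, 1 in EPF 2 and 0 in EPF 3. In the other direction, ENF 1 lay at least 1 unit below all others in 74 genes, the most of any array.

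The balance of directions shifted with the level. In genes with a mean below 4 the median difference was -0.05, and 280 of 2538 genes lay lower on every EPF array against 116 higher. Between 8 and 10 the median was 0.05, with 240 of 3465 genes lower and 366 higher on every EPF array. Differences of at least 2-fold leaned to ENF in dim genes and to EPF in bright ones. Between 4 and 6 there were 136 lower and 65 higher, and between 10 and 12 there were 10 lower and 30 higher. The calls had 3 of the 6 lower genes between 4 and 6 and the other 3 between 6 and 8, none of the genes below 4 called and none of the 452 genes at 12 or above. The 50 higher genes lay at 11 between 4 and 6, 22 between 6 and 8, 13 between 8 and 10 and 4 between 10 and 12.

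**Figure D4:**
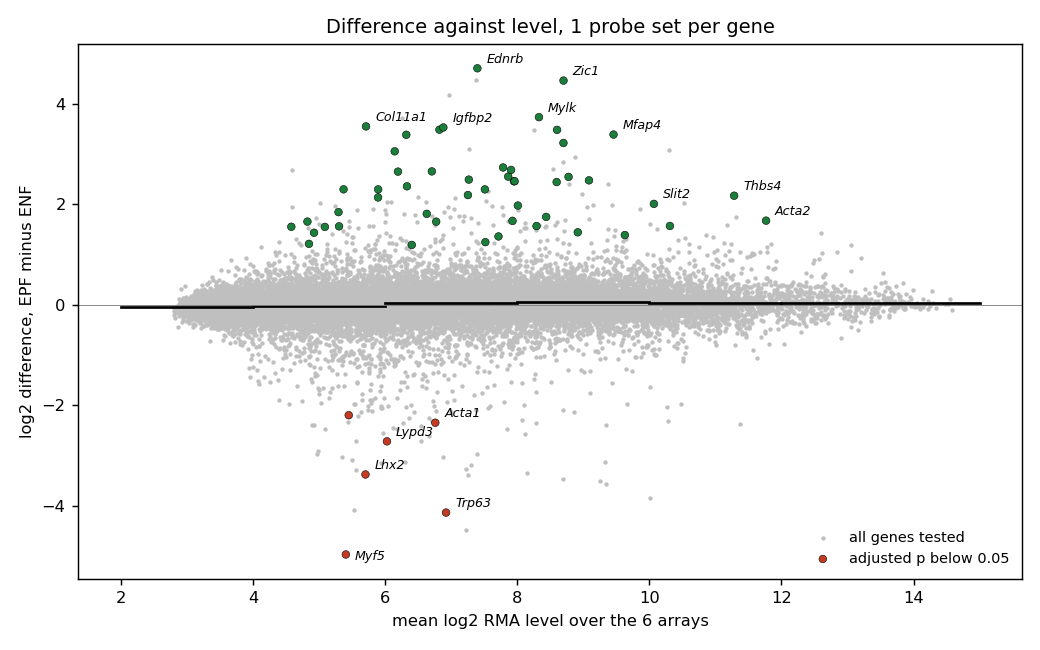
Log2 difference, EPF minus ENF, against the mean log2 RMA level over the 6 arrays for 18193 genes in grey; called genes are green where higher and red where lower in EPF, 14 of them named, and black lines give the median difference in 6 ranges of level. The 6 lower genes have means below 8, while the 50 higher genes reach up to Acta2.

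Of the 59 gene lists 23 held a called member. Medians beyond 0.2 in either direction were found for 19 lists above and 8 below. Ribosomal protein, oxidative phosphorylation and proteasome genes, which every cell uses, had no called member of 17, 25 and 21, and medians of -0.07, -0.16 and -0.25. Cycs, cytochrome c, was lower on every EPF array at 11.12, 10.93 and 10.63 and 11.73, 11.99 and 11.36 without passing (adjusted p = 0.222). None of 25 interferon and antigen presentation genes, 13 heat shock genes and 18 genes of the unfolded protein response passed.

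**Figure D5:**
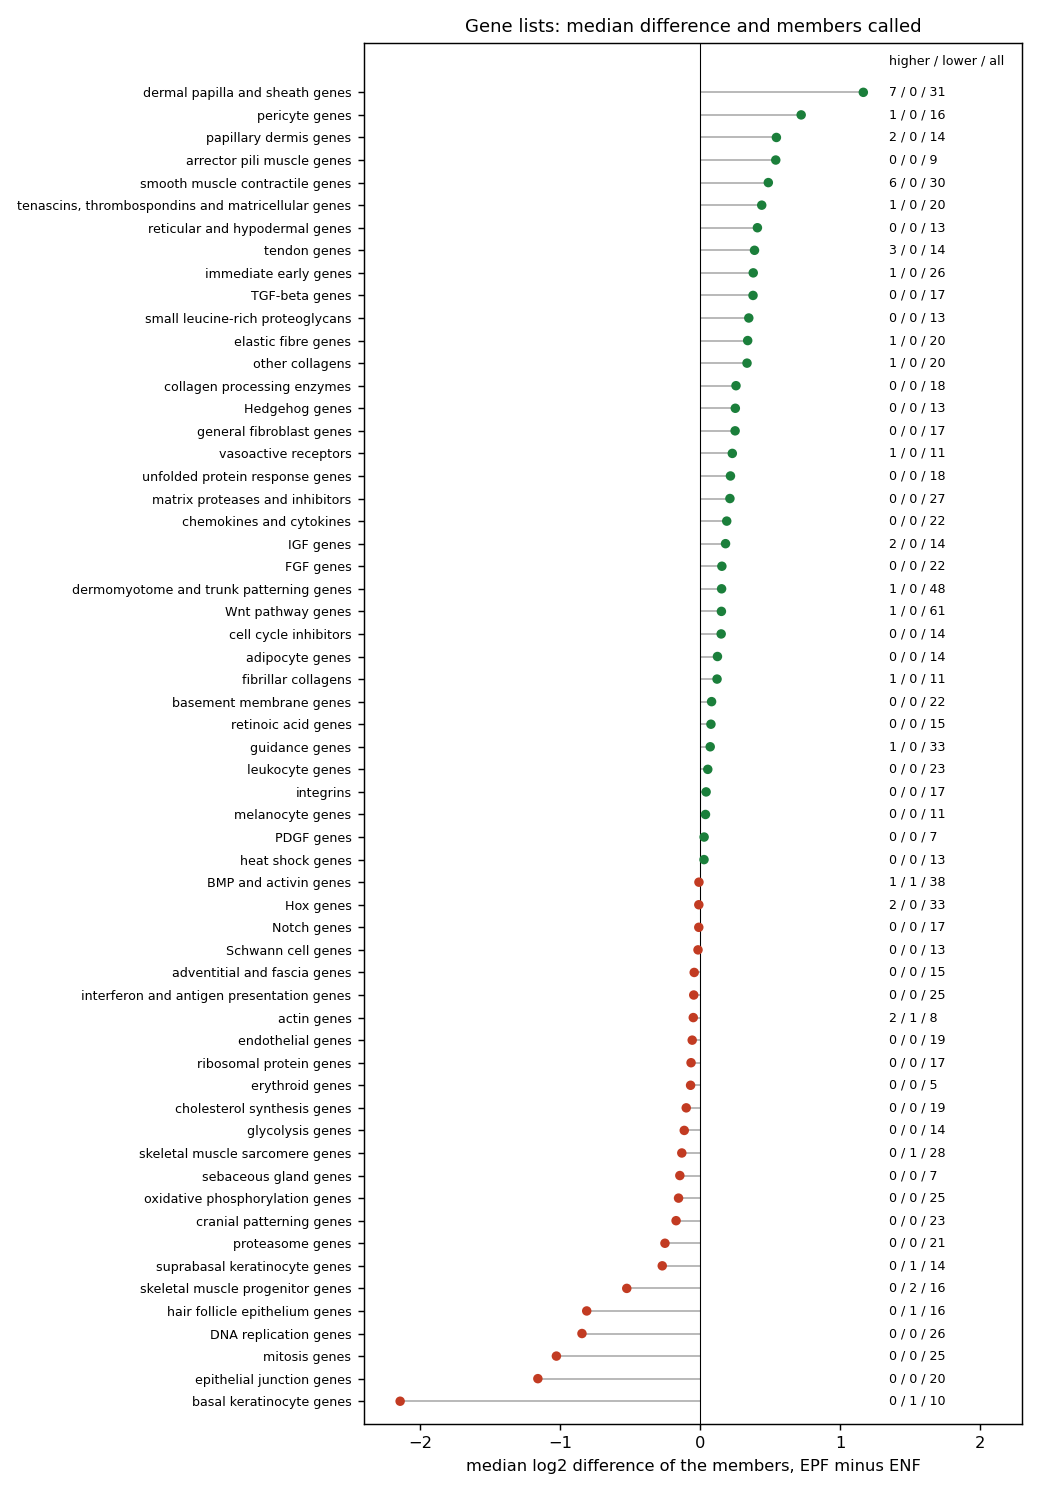
Median log2 difference, EPF minus ENF, of the members of 59 gene lists, ordered by value; the text beside each list gives the number of members called higher, called lower and measured. Dermal papilla and sheath genes lie at the top with 7 of 31 members higher, and basal keratinocyte genes at the bottom with 1 of 10 lower.

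The remaining 26 called genes are on no list and all of them rose. They range from Sytl4, a synaptotagmin-like protein of vesicle release, at 1.19 to Ctla2a, an inhibitor of cysteine proteases, at 3.48. Gm13889, a gene of unassigned function, read 9.32, 9.39 and 9.02 in EPF and 6.77, 6.42 and 6.50 in ENF (2.68 ± 0.18, adjusted p = 0.00299) and passed in all 6 fits that left out 1 array. C1qtnf3, a secreted protein related to complement C1q, read 9.83, 11.02 and 10.06 and 7.26, 6.59 and 7.42 (3.22 ± 0.35, adjusted p = 0.018). Masp1, a protease of the lectin complement pathway, read 8.97, 9.13 and 9.45 and 6.16, 6.98 and 7.05 (2.46 ± 0.27, adjusted p = 0.018). Of its 4 other probe sets 1 was called in the fit over all probe sets, at 2.54.

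Among the others, Nrn1, neuritin, rose by 2.55 ± 0.36, Tenm3, a teneurin of synapse matching, by 2.29 ± 0.31, Cdh4, R-cadherin, by 2.73 ± 0.36, and Sema3g, a secreted semaphorin, by 1.21 ± 0.17. Transcription factors among them were Bcl11b at 2.54 ± 0.35, Hlf at 1.36 ± 0.19 and Runx3 at 1.43 ± 0.17. Bcl11b, a zinc finger factor, read 9.87, 10.35 and 9.91 and 6.65, 7.94 and 7.92, and of its 3 other probe sets 1 was called at 2.27, while the one used here was not in that fit over all probe sets. Runx3 changed sign, to -0.19, when the gene was represented by its brightest probe set on these 6 arrays.

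Enzymes and transport proteins included Aldh3a1, an aldehyde dehydrogenase, at 3.05 ± 0.33, Hpgd, which degrades prostaglandins, at 1.57 ± 0.22, Nceh1, a cholesterol ester hydrolase, at 1.66 ± 0.21, Slc8a3, a sodium and calcium exchanger, at 1.65 ± 0.17, and Cubn, cubilin, at 1.55 ± 0.19. Rgs2, a further regulator of G protein signalling beside Rgs4, read 9.54, 9.96 and 9.94 and 7.01, 8.12 and 6.99 (2.44 ± 0.32, adjusted p = 0.0324). The others were Ctla2a at 3.48 ± 0.44, Coch at 2.35 ± 0.32, Plxdc1 at 2.45 ± 0.35, Kif26a at 1.65 ± 0.21, Ccl9 at 1.56 ± 0.19, Rasl11b at 1.44 ± 0.18, Zcchc18 at 1.84 ± 0.16, Sytl4 at 1.19 ± 0.17 and 2 genes without names, 6330403K07Rik at 1.55 ± 0.20 and 1110064A23Rik at 2.49 ± 0.36. Adjusted p for the 26 ran from 0.00299 to 0.0465. In fits without 1 array 11, 14 and 22 passed without ENF 1, ENF 2 and ENF 3, and 10, 1 and 1 without EPF 1, EPF 2 and EPF 3, with adjusted p up to 0.243. Sema3g passed in none of them.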

How the data were processed

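Processed values of 18 Affymetrix mouse arrays were used as deposited, and 6 of them, 3 EPF and 3 ENF, entered the comparison. The deposited log2 values were made by the authors with RMA and quantile normalization in R, per the series' design text, with versions not given in the sources used here. Of 45101 probe sets 64 were controls, 34945 had 1 gene symbol, 932 had several and 9160 had none. Each of the 18193 genes was represented by its probe set of highest mean level on all 18 arrays. The difference between EPF and ENF was fitted with limma 3.58.1 in R 4.3.3 on the 6 arrays alone, with p-values adjusted after Benjamini and Hochberg across the whole table and called under 0.05. The fit was tested on simulated data. Depth does not apply to arrays, and 3 arrays a group limit the precision. Genes named are the called genes, up to 6 called members per direction of each list, up to 4 members with the widest difference where fewer than 2 were called, a fixed set of lineage, gate and control genes, and the actins, with exceptions stated. Of 1242 list entries 1148 were measured. The members and lists were chosen with earlier results of these data known. Alternatives covered normalization, probe set choice, filters, the samples in the fit, variance options, covariates, the replicate block and single arrays left out.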

Additional observations from a re-analysis of the deposited data

Results flagged for a closer look

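Outside the genes with 1 symbol, 2 probe sets with several or no gene symbol were called in a limma fit over all 45037 probe sets, both higher in EPF. One differed by 1.30 ± 0.16 (adjusted p = 0.0466) and the other by 1.71 ± 0.16 (adjusted p = 0.0174). Outside the mouse transcripts, 42 spike-in control probe sets were lower on every EPF than on every ENF array. The part of these control signals in the differences between the groups was not tested.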

How the results depend on the processing

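Against 56 genes called, limma called 460 with all 18 arrays in the fit, 88 with a trended and robust variance, 3 with the epithelial level of each array as a covariate and 131 with the skeletal muscle level. The muscle level was higher on every ENF than on every EPF array, so that fit cannot separate it from the group. Without ENF 1 and EPF 2, the arrays low for Xist, 4 were called, and without ENF 2 and ENF 3, added after the data were seen, 152. Leaving out 1 array at a time gave 4 to 130. The replicate number as a block gave 21, of which 19 are among the 56. The correlations of deviations from the group means of same-numbered arrays were -0.08, -0.11 and -0.08, and no EPF array's best match bore its own number. EPF 2 was best matched by ENF 1, the other array low for Xist. With 3 arrays a group these values cannot decide whether arrays were paired. The other alternatives gave 40 to 81. Of 1169 alternative values of called genes 1168 kept their sign, which fits that only left out arrays could not change. Runx3 was at -0.19 with the probe set of the highest mean over the 6 arrays, and the cause was not tested. Of 5394 values of named genes under alternatives 435 lost and 152 gained a call. Medians of 35 of 59 lists kept their sign throughout. Near background, below 4.60, differences understate the change.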

Other observations

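Single ENF arrays carried genes that were low on most other arrays, named here after their values were seen. Myb, a factor of dividing progenitor cells, read 7.47 in ENF 2 and 5.01 in ENF 1, against 3.41 to 3.54 on the other 4 arrays. Gnmt, a methyltransferase of methionine metabolism, read 9.81 in ENF 2 and 7.26 in ENF 1, against 4.78 to 4.96. In ENF 3 Clca3a2, a chloride channel accessory protein, read 7.74 against 2.95 to 3.42 on the other 5 arrays, and S1pr5, a sphingosine phosphate receptor, 7.29 against 3.01 to 4.19. Serpinb2, a protease inhibitor, read 9.79 in ENF 3, 7.20 in ENF 2 and 6.90 in EPF 1, against 3.08 to 3.67.

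Slc26a7, an anion exchanger, had a wide difference without a call, and its ENF arrays were spread. It read 10.38, 9.31 and 9.12 in EPF and 3.77, 5.09 and 6.53 in ENF. Among EPF arrays, Prg4, the lubricating protein of joints, was highest in EPF 3, at 9.72 against 6.72 and 7.43 in EPF and 7.42, 7.90 and 7.59 in ENF.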
